A study of Mus musculus with 12 samples.

Results

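The transcription factors and feedback regulators of the integrated stress response were described in mouse spinal cord as 9 genes chosen by name: Atf4, Atf5, Ddit3, Cebpb, Cebpg, Jdp2, Trib3, Nupr1 and Ppp1r15a. All 9 were found among the 38924 genes of the deposited tables, and all 9 passed the filter on low counts. The RNA came from entire spinal cords of 8-week-old mice on the B6J.Cg strain background, sequenced in 12 libraries. C201R libraries come from mice heterozygous for the C201R change in Gars, which encodes glycyl-tRNA synthetase, and WT libraries from wild-type mice. The change is carried in the germline, so every cell type of the cord has it, and no treatment was given in the labels. Whether each library is a separate animal is not spelled out in the labels, so the p-values cover the spread among these 12 libraries, which may be technical.

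The 2 labels that give the genotype disagree. By title, libraries 1, 2, 3, 10, 11 and 12 are C201R and libraries 4 to 9 are WT. By the library name in the sample description, libraries 1, 2, 3, 4, 9 and 10 are C201R and libraries 5, 6, 7, 8, 11 and 12 are WT. The conflict touches libraries 4, 9, 11 and 12, and the other 8 libraries have the same genotype in both labels. The 9 genes were therefore compared by library name, by title and in the 8 agreeing libraries, 4 against 4. Which label is right cannot be told apart from the labels. Xist, the RNA of the inactive X chromosome, was high in 6 libraries, and Xist and Y-linked transcripts went against the titled sex in 6 of the 12 libraries. By title, 5 of 6 C201R and 1 of 6 WT libraries had high Xist, against 3 and 3 by library name. In the agreeing libraries it was found in 3 of 4 C201R and 1 of 4 WT libraries.

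The estimated counts summed to between 27175421 and 38271405 per library. The 9 genes together held between 5295 and 8658 of them in each library. Markers of the labelled tissue were present in all 12 libraries, with Snap25 of neurons at 1790 to 2015 TPM, a level scaled for transcript length and library size. Gfap of astrocytes was at 1065 to 1515 TPM and Chat of motor neurons at 10.8 to 18.5 TPM.

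The integrated stress response starts when a kinase phosphorylates the translation factor eIF2. General translation then slows, while a few mRNAs with upstream reading frames in their 5′ leaders, Atf4 best known among them, are translated more. ATF4 is a basic leucine zipper factor that pairs with C/EBP proteins and binds C/EBP-ATF response elements in genes of amino acid supply and tRNA charging. Several of its targets feed back: Ppp1r15a encodes GADD34, which brings a phosphatase to eIF2, and Trib3 encodes a pseudokinase that binds ATF4. Because much of the control of Atf4 and its relatives is translational, mRNA levels show only a part of it, and no protein or translation was measured here.

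The sequences just upstream of the transcription start are shown for the 3 genes whose level differed most clearly by library name, Atf4, Atf5 and Trib3, from RefSeq on GRCm38.p6. Each is the 250 bases before the start, written 5′ to 3′ on the strand of the gene. The Atf4 stretch is chr15:80254934-80255183 on the plus strand, the Atf5 stretch is chr7:44816659-44816908 on the minus strand and the Trib3 stretch is chr2:152344061-152344310 on the minus strand.
Atf4: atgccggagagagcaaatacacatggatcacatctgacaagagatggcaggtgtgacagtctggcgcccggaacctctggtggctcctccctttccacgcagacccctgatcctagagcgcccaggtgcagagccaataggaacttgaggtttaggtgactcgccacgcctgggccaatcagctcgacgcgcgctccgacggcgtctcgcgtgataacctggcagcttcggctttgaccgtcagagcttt
Atf5: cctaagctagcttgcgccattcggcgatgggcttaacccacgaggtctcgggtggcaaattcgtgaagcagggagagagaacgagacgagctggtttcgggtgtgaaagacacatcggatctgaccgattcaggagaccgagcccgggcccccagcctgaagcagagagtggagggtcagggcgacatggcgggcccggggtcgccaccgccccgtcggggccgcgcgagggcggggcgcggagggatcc
Trib3: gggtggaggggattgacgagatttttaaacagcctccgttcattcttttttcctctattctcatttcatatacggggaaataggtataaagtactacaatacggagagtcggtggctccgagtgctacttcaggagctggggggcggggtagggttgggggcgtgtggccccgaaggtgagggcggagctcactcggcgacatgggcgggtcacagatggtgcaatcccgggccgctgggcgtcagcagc

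Windows of 250 bases before each RefSeq start of the 9 genes, 12 windows in all, were searched on both strands for 3 motifs. These were TGATGNAA, a form of the C/EBP-ATF response element, TGACGTCA, the cAMP response element, and the endoplasmic reticulum stress element. None of the 3 was found in the Atf4, Atf5 and Trib3 stretches above. The first was found in 1 window of Jdp2 and in that of Nupr1, the second in that of Ppp1r15a and the third in no window of the 9 genes. Among 32851 windows of the same length, 3.45% held the first, 1.55% the second and 0.113% the third. A match is a description of the letters and not a bound site. The stretches around the 3 matches are shown with the matching letters in capitals, at chr12:85599356-85599415 on the plus strand for Jdp2, at chr7:126625562-126625591 on the minus strand for Nupr1 and at chr7:45526269-45526328 on the minus strand for Ppp1r15a. The Nupr1 match reads as the reverse complement and lies within an exon of Nupr1 in GENCODE M21, whose first exon starts farther upstream.
Jdp2: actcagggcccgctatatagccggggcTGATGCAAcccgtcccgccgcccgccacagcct
Nupr1: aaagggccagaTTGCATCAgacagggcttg
Ppp1r15a: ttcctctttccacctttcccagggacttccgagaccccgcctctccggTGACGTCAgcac

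Upstream start codons were counted in the 5′ leader of 1 GENCODE M21 transcript per gene, since they bear on how these mRNAs are translated. The Atf4 leader of 594 bases held 3 ATG triplets before the start codon, the Atf5 leader of 373 bases held 2 and the Ddit3 leader of 186 bases held 2. Ppp1r15a had the most, with 7 in 764 bases, and 4.92% of genes had as many or more. Cebpg had 4, Jdp2 had 2 and Nupr1 had 1. Cebpb and Trib3 had 0. In all, 7 of the 9 genes had at least 1, against 51.6% of 15476 tested genes with a leader to read, whose median was 1.

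By TPM, the 9 genes spanned a wide range of levels. Atf4 was the highest, with a median of 108 TPM over the 12 libraries and a range of 90.6 to 123 TPM that no other member reached. Ddit3, which encodes the C/EBP-family factor CHOP, followed at 44.5 TPM (39.2 to 56.0), and Atf5, a paralog of Atf4, at 31.6 TPM (26.5 to 36.5). The ranges of these 3 genes did not overlap. Jdp2, a basic leucine zipper repressor of the AP-1 family, was at 25.7 TPM (23.3 to 27.7), within reach of the lowest Atf5 libraries. Cebpg, which encodes a short C/EBP partner of ATF4, was at 20.4 TPM (18.2 to 22.9), below all Jdp2 values. Ppp1r15a at 12.3 TPM (10.4 to 20.8), Nupr1 at 11.0 TPM (5.03 to 19.5) and Cebpb at 8.65 TPM (6.35 to 12.0) overlapped in range, so their order is not settled, and the highest Ppp1r15a and Nupr1 values also reached the Cebpg range. Trib3 was the lowest, at 0.595 TPM (0.300 to 1.4), below every value of the other 8 genes.

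**Figure D1:**
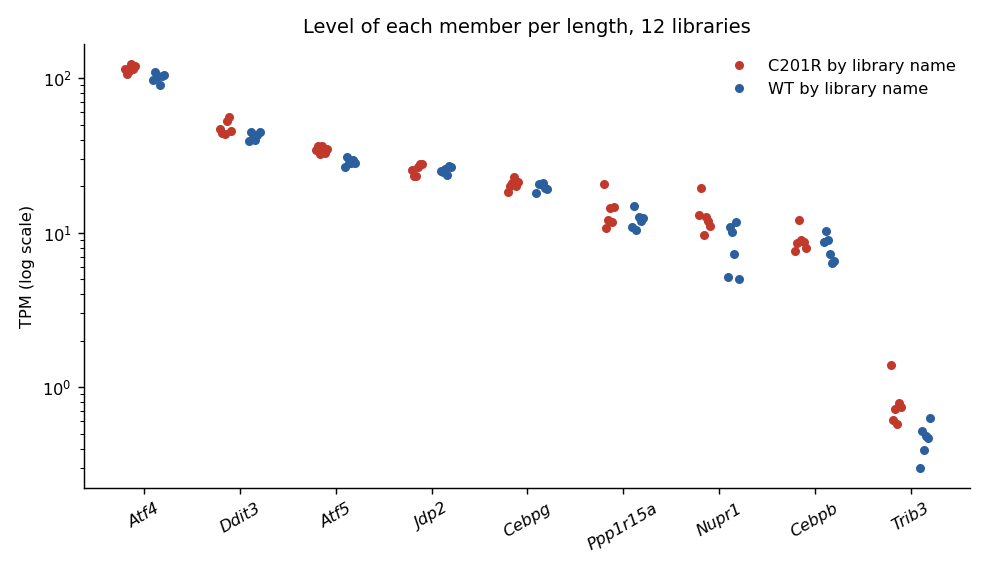
Level of each gene in TPM on a log scale, 1 point per library, with libraries named C201R left of those named WT. Atf4 lies between 90.6 and 123 TPM, above all others, and Trib3 between 0.300 and 1.4 TPM, below all others.

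The study asks which transcripts differ in the cord of mice with the Gars change. By library name, 2 of the 9 genes passed the threshold, and both rose in C201R: Atf4 by 1.13-fold and Atf5 by 1.19-fold. Over all genes 0.715% of 17765 passed, 0.169% as higher and 0.546% as lower. Trib3 was 1.95-fold as high in C201R libraries, with no overlap between the groups, and did not pass. Of all genes tested, 0.585% were separated this way and 1.05% the other way. Ddit3 and Nupr1 were higher on average without passing, and Cebpb, Cebpg, Jdp2 and Ppp1r15a showed no difference larger than the spread between libraries. By title, and in the 8 agreeing libraries, none of the 9 passed. All fold changes and log2 differences below are C201R over WT, fitted on the counts, and levels are in CPM, which are counts scaled for library size by TMM. In bulk tissue, fewer cells of a type and less RNA per cell cannot be told apart, and this holds for each value below.

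Atf4 (ENSMUSG00000042406, chromosome 15, 80255184 to 80257541 on the plus strand in GRCm38), the central factor of the response, had 90.7, 93.9 and 101 CPM as lowest, median and highest in libraries named C201R. Libraries named WT had 78.1, 85.3 and 92.6 CPM. In C201R, 5 of 6 libraries lay above every WT library, and the groups overlapped only because WT library 6 was above C201R library 2. The mean was 94.7 ± 3.53 CPM (SD, n = 6) for C201R and 85.1 ± 4.82 CPM (SD, n = 6) for WT. Atf4 thus rose by 0.18 ± 0.03 on the log2 scale (SE; 95% interval 0.11 to 0.26; edgeR quasi-likelihood test, Benjamini-Hochberg adjusted p = 0.0342). The difference is small beside the level, which by TPM stayed above every other member in each library.

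Atf5 (ENSMUSG00000038539, chromosome 7, 44812256 to 44816658 on the minus strand), which is also translated through upstream reading frames and takes part in the mitochondrial stress response, had 27.9, 29.4 and 32.7 CPM in libraries named C201R. Libraries named WT had 24.3, 24.9 and 27.3 CPM. Every C201R library was above every WT library, a separation shown by 0.585% of all genes tested, with 1.05% separated the other way. The mean was 29.9 ± 1.88 CPM (SD, n = 6) for C201R and 25.2 ± 1.13 CPM (SD, n = 6) for WT. Atf5 rose by 0.26 ± 0.05 on the log2 scale (SE; 95% interval 0.15 to 0.36; edgeR adjusted p = 0.0340).

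Both calls depended on the libraries and the settings of the fit. With 1 library left out at a time, Atf4 stayed past the threshold only without library 2, 6 or 9, and Atf5 only without library 2, 3, 6 or 9. Leaving out any of libraries 1, 4, 5, 7, 8, 10, 11 and 12 ended both calls, and leaving out library 3 ended that of Atf4 (edgeR adjusted p 0.0539 to 0.134 for Atf4 and 0.0549 to 0.129 for Atf5 where the call was lost). The log2 difference itself ran from 0.16 to 0.20 for Atf4 and from 0.23 to 0.27 for Atf5 over these 12 fits. The Atf4 call was also lost without the term for titled sex (edgeR adjusted p = 0.0820), a label that sex-linked transcripts contradict in 6 libraries. It was lost without the filter on low counts (edgeR adjusted p = 0.0526) and with limma on log2(TPM + 1) and log2(TPM + 0.1) (adjusted p = 0.0958 and 0.0942). The Atf5 call was lost with library number as a linear term, where its log2 difference was 0.22 (edgeR adjusted p = 0.0700). Over all 21 other settings the adjusted p (edgeR, DESeq2 or limma) ran from 0.000763 to 0.232 for Atf4 and from 0.000810 to 0.199 for Atf5.

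Ddit3 (ENSMUSG00000025408, chromosome 10, 127290774 to 127296288 on the plus strand), whose product CHOP is induced by ATF4 under prolonged stress, had 17.2, 18.1 and 21.3 CPM in libraries named C201R. Libraries named WT had 16.0, 16.3 and 17.8 CPM. In C201R, 4 of the 6 libraries were above all WT libraries, and libraries 1, 2, 3 and 10 lay close to the highest WT values. The mean was 18.7 ± 1.64 CPM (SD, n = 6) for C201R and 16.7 ± 0.811 CPM (SD, n = 6) for WT, and the log2 difference of 0.19 ± 0.06 did not pass (95% interval 0.06 to 0.32; edgeR adjusted p = 0.195). The 2 highest libraries, numbers 9 and 4 at 21.3 and 20.1 CPM, are named C201R and titled WT.

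Cebpb (ENSMUSG00000056501, chromosome 2, 167688915 to 167690418 on the plus strand) and Cebpg (ENSMUSG00000056216, chromosome 7, 35046422 to 35056573 on the minus strand) encode the C/EBP partners in the set. Cebpb had 5.44, 6.16 and 8.64 CPM in libraries named C201R and 4.38, 5.95 and 7.42 CPM in libraries named WT. The 2 groups overlapped over most of their range. The log2 difference of Cebpb was 0.09 ± 0.16 (95% interval -0.25 to 0.43; edgeR adjusted p = 0.864), so a rise of the size fitted for Atf5 lies within its interval. The highest Cebpb value, 8.64 CPM, was that of library 3, in which fat markers summed to 466 CPM and skeletal muscle markers to 3562 CPM, both the highest of the 12. The other 5 libraries named C201R had fat markers at 10.4 to 29.9 CPM and muscle markers at 79.1 to 1823 CPM. In libraries named WT these were at 3.06 to 77.2 CPM and 83.7 to 2933 CPM. Their part in the Cebpb value was not tested. The counts of Cebpb were whole in 0 of 12 libraries, to a tolerance of 0.005, while the other 8 genes had whole counts in all 12. A count that is not whole means that the authors' counting divided reads between Cebpb and other genes, so its level is less certain.

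Cebpg was steadier, with 39.3, 41.4 and 44.4 CPM in libraries named C201R and 38.7, 42.0 and 45.1 CPM in libraries named WT. Its log2 difference was -0.02 ± 0.04 (95% interval -0.11 to 0.08; edgeR adjusted p = 0.925). The interval leaves out a rise of the size fitted for Atf4 or Atf5. Jdp2 (ENSMUSG00000034271, chromosome 12, 85599027 to 85639878 on the plus strand) had 17.7, 19.5 and 20.3 CPM in libraries named C201R and 18.5, 19.6 and 20.01 CPM in libraries named WT. Its log2 difference was -0.01 ± 0.04 (95% interval -0.10 to 0.09; edgeR adjusted p = 0.971). For these 2 genes the groups lay on top of each other, and the sign of the difference changed with the processing.

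Trib3 (ENSMUSG00000032715, chromosome 2, 152337422 to 152344032 on the minus strand), the pseudokinase that restrains ATF4, had 0.565, 0.718 and 1.13 CPM in libraries named C201R. Libraries named WT had 0.301, 0.400 and 0.490 CPM. These are few reads: the counts were 36, 20, 24, 18, 29 and 22 in C201R libraries 1, 2, 3, 4, 9 and 10, and 10, 10, 9, 13, 15 and 16 in WT libraries 5, 6, 7, 8, 11 and 12. Every C201R library was above every WT library in both counts and CPM. In CPM, 0.585% of all genes tested were separated this way and 1.05% the other way. The summed counts were 149 in C201R and 73 in WT. The mean was 0.750 ± 0.197 CPM (SD, n = 6) for C201R and 0.398 ± 0.0887 CPM (SD, n = 6) for WT. The log2 difference of 0.96 ± 0.23 did not pass (95% interval 0.47 to 1.46; edgeR adjusted p = 0.0869). Library 1 was the highest by far, and without it the log2 difference was 0.70 (edgeR adjusted p = 0.332). The coefficient of variation was 26.3% among C201R and 22.3% among WT libraries, against 23.2% from counting error at the mean count over the 12 libraries. Counting error is smaller than this value in C201R and larger in WT, whose counts were lower.

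Nupr1 (ENSMUSG00000030717, chromosome 7, 126623249 to 126630861 on the minus strand), a small chromatin-associated protein induced by stress, had 3.78, 4.62 and 7.52 CPM in libraries named C201R. Libraries named WT had 1.93, 3.50 and 4.32 CPM. In C201R, 4 of the 6 libraries were above all WT libraries. The mean was 4.92 ± 1.35 CPM (SD, n = 6) for C201R and 3.28 ± 1.11 CPM (SD, n = 6) for WT, and the log2 difference of 0.56 ± 0.25 did not pass (95% interval 0.03 to 1.09; edgeR adjusted p = 0.365). Nupr1 had the largest spread among libraries of the 9 genes, with a coefficient of variation of 27.3% in C201R and 33.9% in WT, against 8.73% from counting error at the mean count over the 12 libraries. Its highest library, number 2, also had the highest sums of blood, meninges and vessel, and microglia markers, at 3074, 548 and 254 CPM. The other 5 libraries named C201R had 664 to 1584 CPM of blood, 371 to 520.5 CPM of meninges and vessel and 228 to 248 CPM of microglia markers. Those named WT had 520 to 1346 CPM, 402 to 507 CPM and 216 to 247 CPM. The part of these in the Nupr1 value was not tested.

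Ppp1r15a (ENSMUSG00000040435, chromosome 7, 45522916 to 45526268 on the minus strand), which helps to end the response by recruiting the eIF2 phosphatase, had 11.7, 12.3 and 15.6 CPM in libraries named C201R. Libraries named WT had 11.2, 12.6 and 13.9 CPM. The medians were thus in the opposite order to the means, 12.9 ± 1.42 CPM (SD, n = 6) for C201R and 12.6 ± 1.03 CPM (SD, n = 6) for WT, with library 1 alone above all WT libraries. The log2 difference was 0.10 ± 0.06 (95% interval -0.03 to 0.22; edgeR adjusted p = 0.516). Without the term for titled sex, a label that sex-linked transcripts contradict in 6 libraries, it was 0.033 (edgeR adjusted p = 0.907). On the log2(TPM + 1) scale the difference was 0.27 and did not pass (limma adjusted p = 0.467). The effective length that RSEM gave Ppp1r15a, by which TPM is divided, ran from 1452 to 2199 bases over the libraries and was shortest in library 1. Its median was 1786 bases in C201R and 2000.2 bases in WT by library name, so TPM and counts describe Ppp1r15a differently.

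**Figure D2:**
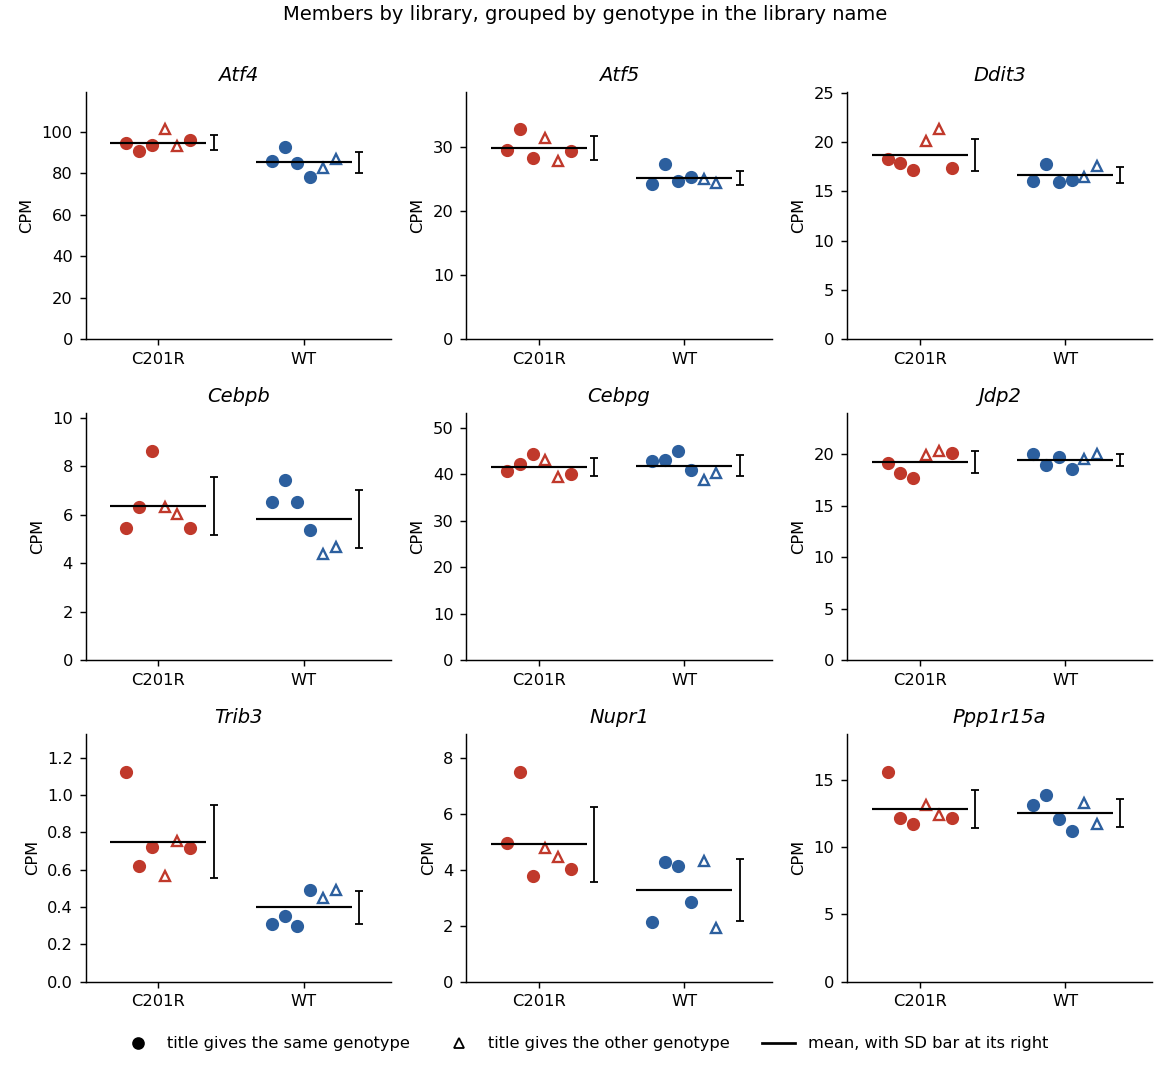
CPM of each gene in the 12 libraries, grouped by the genotype in the library name, C201R left of WT. Lines are means and bars are SD, and open triangles are the 4 libraries whose title gives the other genotype. The groups do not overlap for Atf5 (27.9 to 32.7 CPM in C201R, 24.3 to 27.3 CPM in WT) and Trib3 (0.565 to 1.13 CPM in C201R, 0.301 to 0.490 CPM in WT). Of all genes tested, 0.585% were separated this way and 1.05% the other way.

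By title, none of the 17765 genes passed (0.00%), and so none of the 9. No member was at an unadjusted p under 0.05, as 6.77% of all genes were. DESeq2 called 17 of the 17765 genes by title, none of them among the 9. Atf4 was 90.6 ± 5.06 CPM (SD, n = 6) for C201R and 89.2 ± 7.99 CPM (SD, n = 6) for WT, with a log2 difference of 0.02 ± 0.06 (edgeR adjusted p = 0.977). Atf5 averaged 28.2 ± 3.12 CPM for C201R and 26.8 ± 2.67 CPM for WT, with a log2 difference of 0.07 ± 0.08 (edgeR adjusted p = 0.916). Trib3 averaged 0.687 ± 0.242 CPM for C201R and 0.461 ± 0.179 CPM for WT, with a log2 difference of 0.56 ± 0.29 (edgeR adjusted p = 0.766). The groups overlapped for all 3. The other 6 genes had log2 differences from -0.14 for Cebpb to 0.21 for Nupr1 (edgeR adjusted p 0.893 to 0.986).

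In the 8 libraries on which the labels agree, the differences of Atf4, Atf5 and Trib3 were of similar size and did not pass. These libraries are part of the 12, so the values are not independent of those above. Atf5 had 29.6, 32.7, 28.3 and 29.3 CPM in C201R libraries 1, 2, 3 and 10, and 24.3, 27.3, 24.7 and 25.4 CPM in WT libraries 5, 6, 7 and 8 (log2 difference 0.24 ± 0.06, edgeR adjusted p = 0.164). Trib3 had 1.13, 0.621, 0.720 and 0.715 CPM in the C201R libraries and 0.308, 0.350, 0.301 and 0.489 CPM in the WT libraries (log2 difference 1.19 ± 0.28, edgeR adjusted p = 0.148). For both genes the 4 C201R libraries were above the 4 WT libraries, as they were for 3.82% of all genes tested, with 4.71% separated the other way. Atf4 had 94.3, 90.7, 93.4 and 95.8 CPM in the C201R libraries and 85.8, 92.6, 84.9 and 78.1 CPM in the WT libraries (log2 difference 0.16 ± 0.05, edgeR adjusted p = 0.210). There WT library 6 overlapped the C201R group. In this comparison 0.163% of genes passed, 0.0338% as higher and 0.129% as lower, and none of the 9, while 4 of the 9 and 13.0% of all genes were at an unadjusted p under 0.05. DESeq2 called 241 of the 17765 genes tested in these libraries, and none of the 9.

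**Figure D3:**
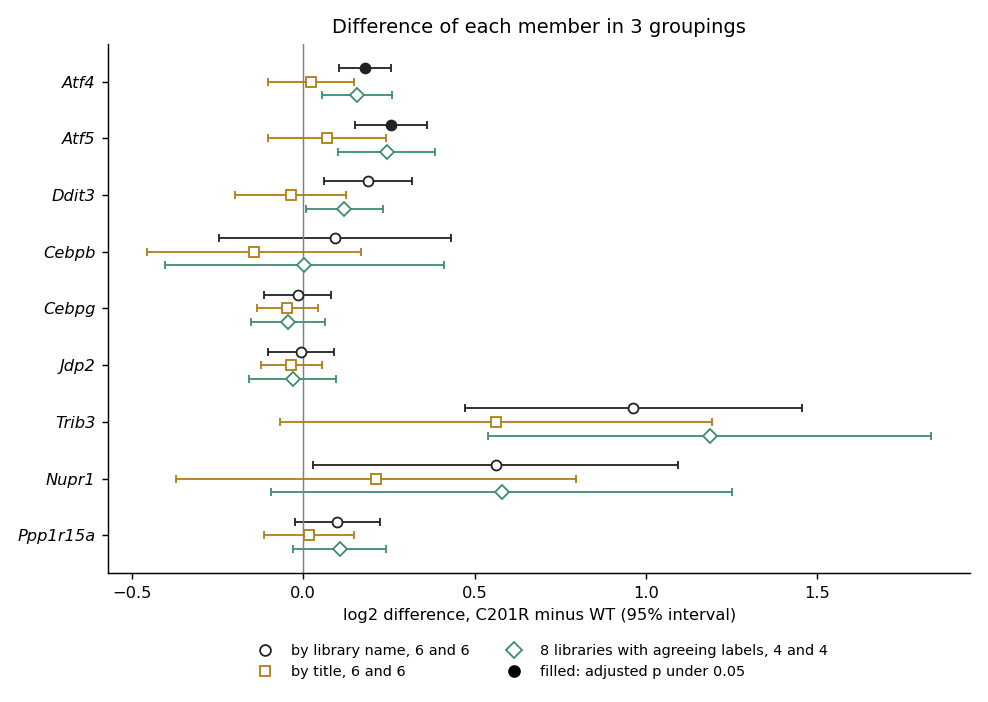
Log2 difference, C201R minus WT, of each gene with its 95% interval by library name (circles), by title (squares) and in the 8 agreeing libraries (diamonds). Filled symbols mark an adjusted p under 0.05, which only Atf4 (0.18) and Atf5 (0.26) reached, both by library name.

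The 4 libraries with conflicting labels could be set beside the 8 agreeing ones, as values only. Atf5 and Trib3 had no overlap between the groups by library name. For these genes libraries 4 and 9 therefore had to lie above the agreeing WT libraries, and 11 and 12 below the agreeing C201R libraries. Atf4 was called by library name on the same libraries, so these values are no independent support for either label. In Atf5, libraries 4 and 9, named C201R, had 31.4 and 27.9 CPM, above all 4 agreeing WT libraries. Libraries 11 and 12, named WT, had 25.0 and 24.4 CPM, below all 4 agreeing C201R libraries. In Atf4 the same libraries had 101 and 93.0 CPM for numbers 4 and 9, again above all 4 agreeing WT libraries, and 82.5 and 87.0 CPM for numbers 11 and 12, below all 4 agreeing C201R libraries. In Trib3 they had 0.565 and 0.755 CPM for numbers 4 and 9, and 0.450 and 0.490 CPM for numbers 11 and 12. Libraries 4, 11 and 12 were below all 4 agreeing C201R libraries, and libraries 4, 9 and 12 above all 4 agreeing WT libraries. In the other members, this placing, 4 and 9 above all agreeing WT and 11 and 12 below all agreeing C201R libraries, did not hold throughout. It failed in library 12 for Ddit3, library 11 for Nupr1 and libraries 4 and 9 for Cebpb. It also failed in libraries 4, 9 and 12 for Cebpg, libraries 4, 11 and 12 for Jdp2 and all 4 for Ppp1r15a. In Nupr1, library 11 at 4.32 CPM was above all 4 agreeing WT libraries while library 12 at 1.93 CPM was below all of them. No library was moved to another group on these values.

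By titled sex and by the interaction of title genotype with titled sex, no gene passed (0.00% each, edgeR), with 981 and 758 genes at an unadjusted p under 0.05. Among the 9, Ppp1r15a had the lowest p for titled sex, with 13.5 CPM in female and 12.0 CPM in male libraries (log2 difference, female minus male, 0.17 ± 0.06, edgeR adjusted p = 0.873). Cebpb had the lowest p for the interaction, in which the genotype difference was lower in females than in males by a log2 value of -0.67 ± 0.22 (edgeR adjusted p = 0.966). Since sex-linked transcripts went against the titled sex in 6 libraries, these are comparisons of titles.

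Likeness of profile was described over the 12 libraries as the Pearson correlation of log2(CPM + 0.5) with each of 13567 named genes with a mean of at least 1 CPM, without a test. The 3 genes most like Atf5 were Tfam at 0.934, which packages mitochondrial DNA, Lars at 0.929, the leucyl-tRNA synthetase, and Rbm43 at 0.920. Those most like Ddit3 were Mbd3 at 0.920, Aars at 0.890, the alanyl-tRNA synthetase, and Shmt2 at 0.881, the mitochondrial serine hydroxymethyltransferase. Of these, Lars, Aars and Shmt2 are in the list of ATF4 target genes below, and none of the genes named for the other members is. That list holds 46 tested genes, against the 13567 genes searched. It was written with earlier results of these data known, so the overlap is no independent support. Atf4 was most like Abtb1 at 0.925, Zfp511 at 0.920 and Dennd6b at 0.905, and Trib3 most like Tprkb at 0.910, Mknk1 at 0.895 and Pex16 at 0.894. Nupr1 was most like Ddr2 at 0.933, a collagen receptor, Dhrs7 at 0.930 and Moxd1 at 0.894. Cebpb was most like Nat2 and Hp at 0.888 each, Hp encoding haptoglobin, and Ap4e1 at 0.859. Cebpg was most like Coq10b, Hlf and Tmed8 (0.913 to 0.886), Jdp2 most like Adcy2, B3gat3 and Rnf219 (0.956 to 0.870) and Ppp1r15a most like Vasp, Rps20 and Apobec3 (0.905 to 0.866). Each correlation rests on 12 points whose genes share the library and its depth, and the names are the highest of all genes searched.

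Genes put in a list of ATF4 targets were mostly higher by library name. The list was written with earlier results of these data known and includes Gars, the changed gene itself. Its counts are therefore no independent support. Of the 46 listed genes tested, 40 were higher in libraries named C201R, 13 rose and none fell, with a median log2 difference of 0.13. The 9 regulators had 7 higher, 2 risen and a median of 0.18. Over all genes the median was 0.00, with 50.9% higher, 0.169% called as higher and 0.546% called as lower. The largest of the 13 were genes near 0 in WT: Fgf21, a secreted metabolic hormone, had 3.42 to 4.13 CPM in C201R and 0 to 0.0376 CPM in WT. Gdf15, a stress cytokine, had 0.342 to 0.563 CPM in C201R and 0 to 0.123 CPM in WT, and Adm2, a secreted peptide, was also among the 13. B4galnt2, a glycosyltransferase, had a log2 rise of 2.54 ± 0.20 (edgeR adjusted p = 6.56e-05). Chac1, which breaks down glutathione, rose by 0.57 ± 0.07 and Sesn2, which restrains TORC1, by 0.38 ± 0.04 (edgeR adjusted p = 0.00268 and 0.00133). The amino acid transporters Slc7a3, Slc7a1 and Slc7a5 rose by 0.48 ± 0.08, 0.41 ± 0.03 and 0.26 ± 0.04 (edgeR adjusted p up to 0.0148). Aldh18a1 of proline synthesis and the tRNA synthetases Lars, Cars and Gars itself rose by 0.15 to 0.23 (edgeR adjusted p up to 0.0408), sizes like those of Atf4 and Atf5. Asns, the asparagine synthetase and a classic ATF4 target, had a log2 difference of 0.13 ± 0.04 and did not pass (edgeR adjusted p = 0.153). This gene was singled out after its value was seen.

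By title none of the 46 targets passed, with 30 higher and a median of 0.04. The 3 of lowest p were Slc38a2, an amino acid transporter, with a log2 difference of -0.24 ± 0.08, Slc7a11, the cystine transporter, with 0.27 ± 0.12, and Gpt2, an alanine aminotransferase, with -0.12 ± 0.05 (edgeR adjusted p 0.640 to 0.721). In the 8 agreeing libraries 37 of the 46 were higher, 4 rose and Slc38a2 fell, with a median of 0.13. Over all genes in these libraries 0.0338% were called as higher and 0.129% as lower.

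None of the genes upstream of the 9 regulators, their relatives or their partners passed, by library name, by title or in the 8 agreeing libraries. Of 19 genes upstream of them (the eIF2 kinases, eIF2 and eIF2B subunits and others), 11 were higher and none was called by library name (median log2 difference 0.00). Of 21 tested relatives of the 9 (other ATF, C/EBP, AP-1 and Tribbles genes), 7 were higher and 14 lower, none called, with a median of -0.09. Of 16 partners and turnover factors 2 were higher and 14 lower, with none called and a median of -0.05. The 21 genes of endoplasmic reticulum chaperones and the unfolded protein response were all lower in libraries named C201R, none called, with a median of -0.09, and 20 of 21 were lower by title and in the agreeing libraries. Immediate early genes had 11 of 14 lower by library name and 13 of 14 by title, and glucocorticoid response genes 12 of 14 by either label. None was called in either list by either label, and 1 glucocorticoid response gene fell in the 8 agreeing libraries. Immediate early sums were 209 to 241 CPM in libraries 4 to 7 and 147 to 175 CPM in all others. Libraries 4 to 7 are all titled WT, while libraries 8 and 9, also titled WT, had 157 and 150 CPM. In the heat shock list 14 of 15 were lower by library name and 15 of 15 by title. By library name 2 fell, Hspb1 by 0.61 ± 0.11 and Bag3 by 0.38 ± 0.08 in log2 units (edgeR adjusted p = 0.0200 and 0.0467). Over all genes 0.546% were called as lower. Summed heat shock levels were 5317 to 5474 CPM in libraries 1, 2 and 3. Libraries 4, 9 and 10, also named C201R, had 6215 to 6393 CPM, within the 6132 to 6652 CPM of libraries named WT.

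**Figure D4:**
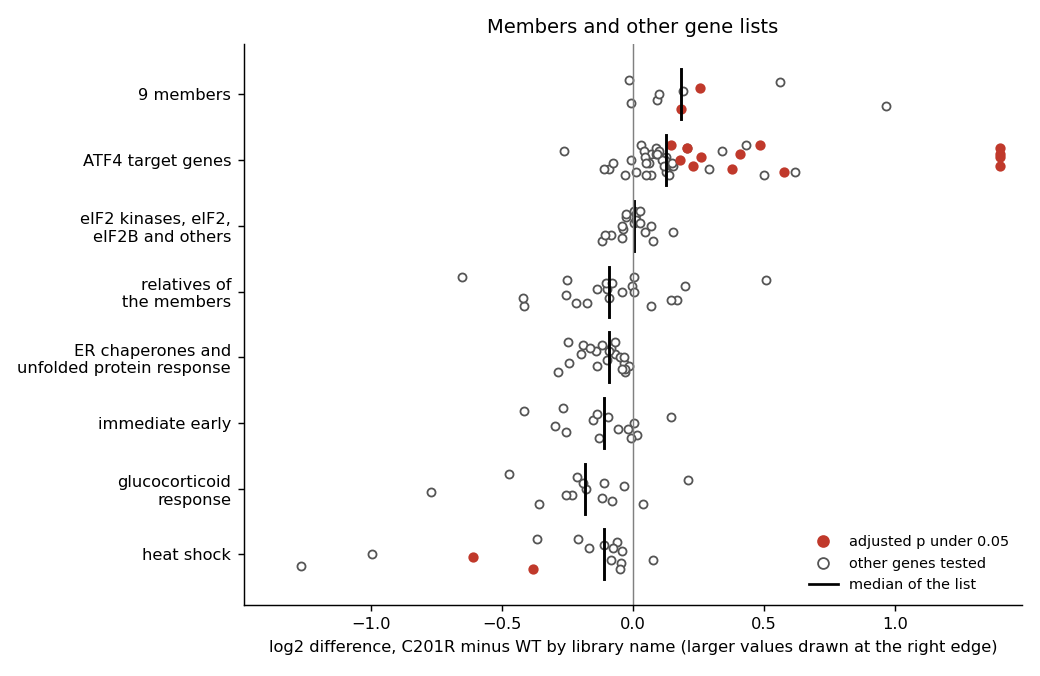
Log2 difference by library name, C201R minus WT, of the 9 genes and of other lists, 1 point per gene, filled where the adjusted p was under 0.05, with the median of each list as a bar. Values above the axis are drawn at its right edge. The medians are 0.18 for the 9 genes and 0.13 for ATF4 targets, and those of the endoplasmic reticulum and heat shock lists are -0.09 and -0.11.

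Of the marker and response lists summed per library, the motor neuron list alone differed past the threshold between the genotypes by library name. Its 12 markers summed to 191 to 238 CPM in libraries named C201R and 253 to 363 CPM in libraries named WT, without overlap. The exact permutation test, two-sided over every split of the 12 libraries, gave p = 0.0022, the smallest it can give, and an adjusted p of 0.0346 over 16 lists. By title the sums overlapped, at 191 to 289 CPM in C201R and 196 to 363 CPM in WT (exact permutation test, adjusted p = 0.455), and no list passed (adjusted p at least 0.173). Sums were not compared in the 8 agreeing libraries. By library name 9 of the 12 markers were lower and 4 fell, led by Chodl of fast motor neurons (log2 difference -1.41), Chat (-0.45) and Vipr2 (-0.91). Oligodendrocyte markers summed to 26393 to 30412 CPM in C201R and 29403 to 31767 CPM in WT (exact permutation test, adjusted p = 0.0693), and the other 14 lists had adjusted p of 0.173 or more. Of 10 neuron markers 4 were higher and 6 lower, and 1 fell, Stmn2 with a log2 difference of -0.19. Of 7 astrocyte markers 2 were higher and 5 lower, and 1 rose, Slc1a3 with 0.18. Over all genes 0.169% were called as higher and 0.546% as lower by library name. Astrocyte sums had a median of 6044 CPM in C201R and 6094 CPM in WT. Which cells carry the Atf4, Atf5 and Trib3 transcripts was not measured. The part of cell composition in their differences was not tested. Skeletal muscle transcripts were above 0.15% of counts in libraries 1, 3, 6 and 8. Without these 4, the log2 difference by library name was 0.19 for Atf4, 0.32 for Atf5 and 0.78 for Trib3, and none passed (edgeR adjusted p = 0.232, 0.199 and 0.658).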

How the data were processed

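PolyA RNA was sequenced as stranded 75-base paired reads, per the labels' protocols. Bowtie2 2.2.0 and RSEM 1.2.12 were used, per the submitters' processing notes, with genome build and annotation not given in the sources used here. The deposited tables held, per the file headers, an expected count, a TPM and an FPKM per gene, which the authors made with RSEM. It splits ambiguous reads among genes. The FPKM values were left unused. For testing, expected counts were rounded, filtered with filterByExpr over the 4 titled groups (17765 genes kept), scaled by TMM and tested with the edgeR 4.0.16 quasi-likelihood test in R 4.3.3, with titled sex as a term and Benjamini-Hochberg adjustment over all genes tested (threshold 0.05). Standard errors equal the log2 difference over the root of F. Intervals cover the spread between libraries. Levels between genes were compared by TPM. Alternatives were DESeq2 1.42.0, limma 3.58.1 on log2(TPM + 1) and log2(TPM + 0.1), RLE size factors, other filters, no sex term, library number as a term, and leaving out libraries. Positions came from GENCODE M21, matched for 37607 gene IDs (96.62%), and promoter sequences from RefSeq on GRCm38.p6, found by symbol for all 9 members. Named genes are all 9 members, the called ATF4 targets or the 3 of lowest p, up to 3 called genes of each other list, and the 3 most alike genes per member. The members, lists and tests were chosen with earlier results of these data known, and the patterns by library name are no independent support. Python 3.11.15 was used for joins, permutation tests and plots.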

Additional observations from a re-analysis of the deposited data

Results flagged for a closer look

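In 60 groups of 4 or 6 libraries (the 9 genes and Gars, each in 6 groups by library name, by title and by agreeing labels), 7 held 1 library that stood apart from the others by Dixon's criterion. Chance marks about 1 in 20 groups, and the groups share libraries. Ppp1r15a in library 1 had 15.6 CPM, against 11.7 to 13.1 CPM in the other 5 libraries named C201R and 11.7 to 12.2 CPM in the other 3 agreeing C201R libraries. Trib3 in the same library had 1.13 CPM, against 0.565 to 0.755 CPM in the others named C201R. Nupr1 in library 2 had 7.52 CPM, against 3.78 to 4.97 CPM in the others named C201R. Cebpb in library 3 had 8.64 CPM, against 5.44 to 6.34 CPM in the others named C201R. Library 6 stood apart among WT libraries in 2 genes. Its Atf5 level was 27.3 CPM, against 24.3 to 25.4 CPM in the other 5 libraries named WT, and its Ddit3 level was 17.8 CPM, against 16.0 to 16.1 CPM in the other 3 agreeing WT libraries. All 7 stood apart on the high side. Library 6 had the highest sums of the 12 libraries for motor neuron and leukocyte markers, 363 and 137 CPM. It also had the highest for immediate early, glucocorticoid response and heat shock genes, 241, 1039 and 6652 CPM. The part of these in its Atf5 and Ddit3 values was not tested.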

How the results depend on the processing

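By library name 127 genes passed and 2 of the 9 members. The number of genes was 313 with DESeq2, 41 and 42 with limma on log2(TPM + 1) and log2(TPM + 0.1), 235 with library number as a linear term, 12 without the 4 libraries over 0.15% skeletal muscle, and 54 to 221 with 1 library left out. The number of members was 1 without a filter on low counts, without a term for titled sex, with either limma fit and with library number as a term (Atf4 under that term, Atf5 in the other 4 fits), 0 without the muscle libraries, and 0 to 2 with 1 library left out. Over 21 settings Atf4 was called in 7 (log2 difference 0.15 to 0.22) and Atf5 in 11 (0.22 to 0.32), and Trib3 in none of 20 (0.33 to 1.13, edgeR, DESeq2 or limma adjusted p 0.0655 to 0.658). A mean above 1 CPM left Trib3 out, so that setting gave no value for it. By title 0 genes passed, 17 with DESeq2 and 8 with library number as a term, and 0 members under every setting run. In the 8 agreeing libraries 29 genes passed, 241 with DESeq2, 91 without a filter, 70 without the sex term and 5 to 119 with 1 library left out, and 0 members under every setting run. Signs turned only in differences that did not pass. By library name limma on log2(TPM + 1) and log2(TPM + 0.1) gave 0.028 and 0.030 for Cebpg and 0.027 and 0.028 for Jdp2, and library number as a term gave 0.040 for Jdp2 and -0.11 for Cebpb. With 1 library left out Jdp2 ran from -0.023 to 0.0092 and Cebpg from -0.040 to 0.019. By title Atf4 was -0.037 and Ppp1r15a -0.038 without the muscle libraries, and with 1 library left out Atf4 ran from -0.015 to 0.062, Ddit3 from -0.071 to 0.028 and Ppp1r15a from -0.035 to 0.058. In the agreeing libraries Cebpb ran from -0.15 to 0.19. The cause of these changes was not tested, except that fewer libraries enter where some are left out. No paired analysis was possible because the library numbers 1 to 12 are unique and the groups share none. Depth limits Trib3 most, with 9 to 36 counts per library.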
